A study of Schizosaccharomyces pombe with 80 samples.

Results

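Centromere 1 of fission yeast was examined through the H3K9me2 peaks that the authors called in single ChIP-seq libraries. H3K9me2, dimethylation of histone H3 at lysine 9, is the mark of heterochromatin in this yeast. Members were chosen by position alone. Every peak that overlapped chromosome I between 3743686 and 3799421 was taken, a window of 55.7 kb that holds centromere 1 (3753686 to 3789421, build ASM294v2) and 10 kb on each side. The window held 329 of the 7203 peaks of the series, or 4.57%. They came from 68 of the 75 lists. 6 lists, all from input DNA, had no peak in the window, and 1 list had no peak anywhere.

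Of the 329 peaks, 215 overlapped centromere 1, 54 lay in the left flank only and 60 in the right flank only. The peaks over the centromere were long (median 6.005 kb), while those confined to a flank were short (median 1.07 kb). Their median fold was 8.0 over the centromere and 3.37 in the flanks. Fold here is the authors' mean coverage of a peak over their coverage of its chromosome, and the lowest fold in any list was 3.00.

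Isolates of 4 genotypes carried the comparison, all of them epe1Δ. Epe1 is a JmjC-domain protein that opposes the spread of heterochromatin. There were 13 epe1Δ tfs1DN isolates, 12 epe1Δ ago1Δ tfs1DN isolates, 15 seb1-1 epe1Δ tfs1DN isolates and 15 epe1Δ vector isolates. tfs1DN is a dominant-negative form of TFIIS, the factor that rescues paused RNA polymerase II. It was integrated under the thiamine-repressible nmt1 promoter and grown with thiamine, which represses it without shutting it off. The vector isolates carried the same plasmid without tfs1DN. ago1 encodes Argonaute, the effector of RNA interference, and seb1-1 is a mutant allele of the RNA-binding termination factor Seb1.

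The untransformed parents were 3 epe1Δ ago1Δ strains, 1 seb1-1 epe1Δ strain and 3 epe1Δ samples, of which 1 had the list without peaks and was treated as missing. Isolates and parents grew at 30 C. A further pair of pfs2-11 samples, a mutant of the RNA 3′-end processing factor Pfs2, and 2 pfs2+ wild-type samples were grown at 37 C, and their labels give no deletion of epe1. 9 input libraries gave the background. The labels name parents, inputs and sets, and samples that share these are called a batch here. The sample titles name no sequencing run. Each of the 4 isolate genotypes had batches of its own. The epe1Δ tfs1DN isolates came in 2 batches (isolates 1 and 13, and isolates 2 to 12) and the ago1Δ isolates in 3 sets of 3, 5 and 4, each with its own parent. Replicates are single isolates, so p-values measure the spread between isolates within these batches.

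A fission yeast centromere has a central core, where the kinetochore assembles on chromatin with the centromeric histone H3 variant and without H3K9 methylation. On each side lie inner repeats and the outer dg and dh repeats, which are transcribed at a low level and packed into heterochromatin by RNA interference and by pathways that do not need it. tRNA genes between the core and the outer repeats act as a barrier to heterochromatin. At centromere 1, inverted repeats named IRC1-L and IRC1-R mark the outer ends of the heterochromatin.

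These landmarks are printed because the peak edges below are described by them. Sequences and gene positions came from the RefSeq annotation, whose assembly is named ASM294v3. Its chromosomes were long enough for every peak. Coordinates are on chromosome I. SPATRNAPHE.02, a tRNA-Phe gene, lies just outside the left bound (3752334 to 3752406, minus strand, 73 bp) and reads on its own strand:

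SPATRNAPHE.02: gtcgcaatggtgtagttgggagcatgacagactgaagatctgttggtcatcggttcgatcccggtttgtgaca

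The core is flanked on each side by a tRNA-Ala and a tRNA-Glu gene in mirrored order. SPATRNAALA.04 (3765008 to 3765081, minus strand) and SPATRNAALA.05 (3777192 to 3777265, plus strand) are the outer members and were 100% identical over 74 bp. SPATRNAGLU.03 (3765434 to 3765505, minus strand) and SPATRNAGLU.04 (3776768 to 3776839, plus strand) are the inner members and were 100% identical over 72 bp, so 1 copy of each is shown:

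SPATRNAALA.04: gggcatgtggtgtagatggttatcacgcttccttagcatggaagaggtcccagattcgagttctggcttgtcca
SPATRNAGLU.03: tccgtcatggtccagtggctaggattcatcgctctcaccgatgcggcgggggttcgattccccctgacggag

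IRC1-R (3789400 to 3789948, plus strand, 549 bp) spans the right bound and IRC1-L (3753160 to 3753692, minus strand, 533 bp) the left bound. All 533 bases of IRC1-L were found in IRC1-R. The first 300 bases of IRC1-R are printed, with capitals for the 16 bases that precede the part shared with IRC1-L:

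IRC1-R: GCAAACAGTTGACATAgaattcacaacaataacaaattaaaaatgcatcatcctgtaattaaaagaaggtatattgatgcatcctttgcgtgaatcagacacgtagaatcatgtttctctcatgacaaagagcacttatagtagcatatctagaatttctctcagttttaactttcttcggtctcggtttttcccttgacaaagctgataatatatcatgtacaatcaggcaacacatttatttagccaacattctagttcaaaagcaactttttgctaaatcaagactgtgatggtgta

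The arms of the locus are near copies of each other and of the other centromeres, which bears on every value inside the bounds. In the reference, 94.3% of the 50-base words of the left arm and 95.4% of those of the right arm had another copy on the nuclear chromosomes, with a median of 6 copies in each arm. A copy lay in centromere 2 or 3 for 83.6% of the left-arm words and 85.3% of the right-arm words. In the core gap of the vector isolates 91.1% of the words had another copy. The copy lay in centromere 1 for 63.7% and in centromere 2 or 3 for 28.3% of the words. In the left and right flanks the shares with another copy were 13.9% and 10.6%. The aligner was run so that a read with several equally good places was put at 1 of them. The arms and the core therefore hold reads pooled over copies, while the flanks hold mostly their own reads.

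The same plan was seen in every isolate: a block of H3K9me2 on each arm and a peak-free stretch over the central core. In the map of all lists, no peak lay over the 2 tRNA-Ile genes of the core (SPATRNAILE.03 and SPATRNAILE.04) in any library. In all 15 vector isolates, and in both pfs2-11 and both wild-type samples, exactly 2 peaks overlapped the centromere, 1 on each arm. The same was true of 13 of the 15 seb1-1 isolates and 9 of the 12 ago1Δ isolates, against 0 of the 13 epe1Δ tfs1DN isolates, which had 5 to 9 peaks (median 6).

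**Figure D1:**
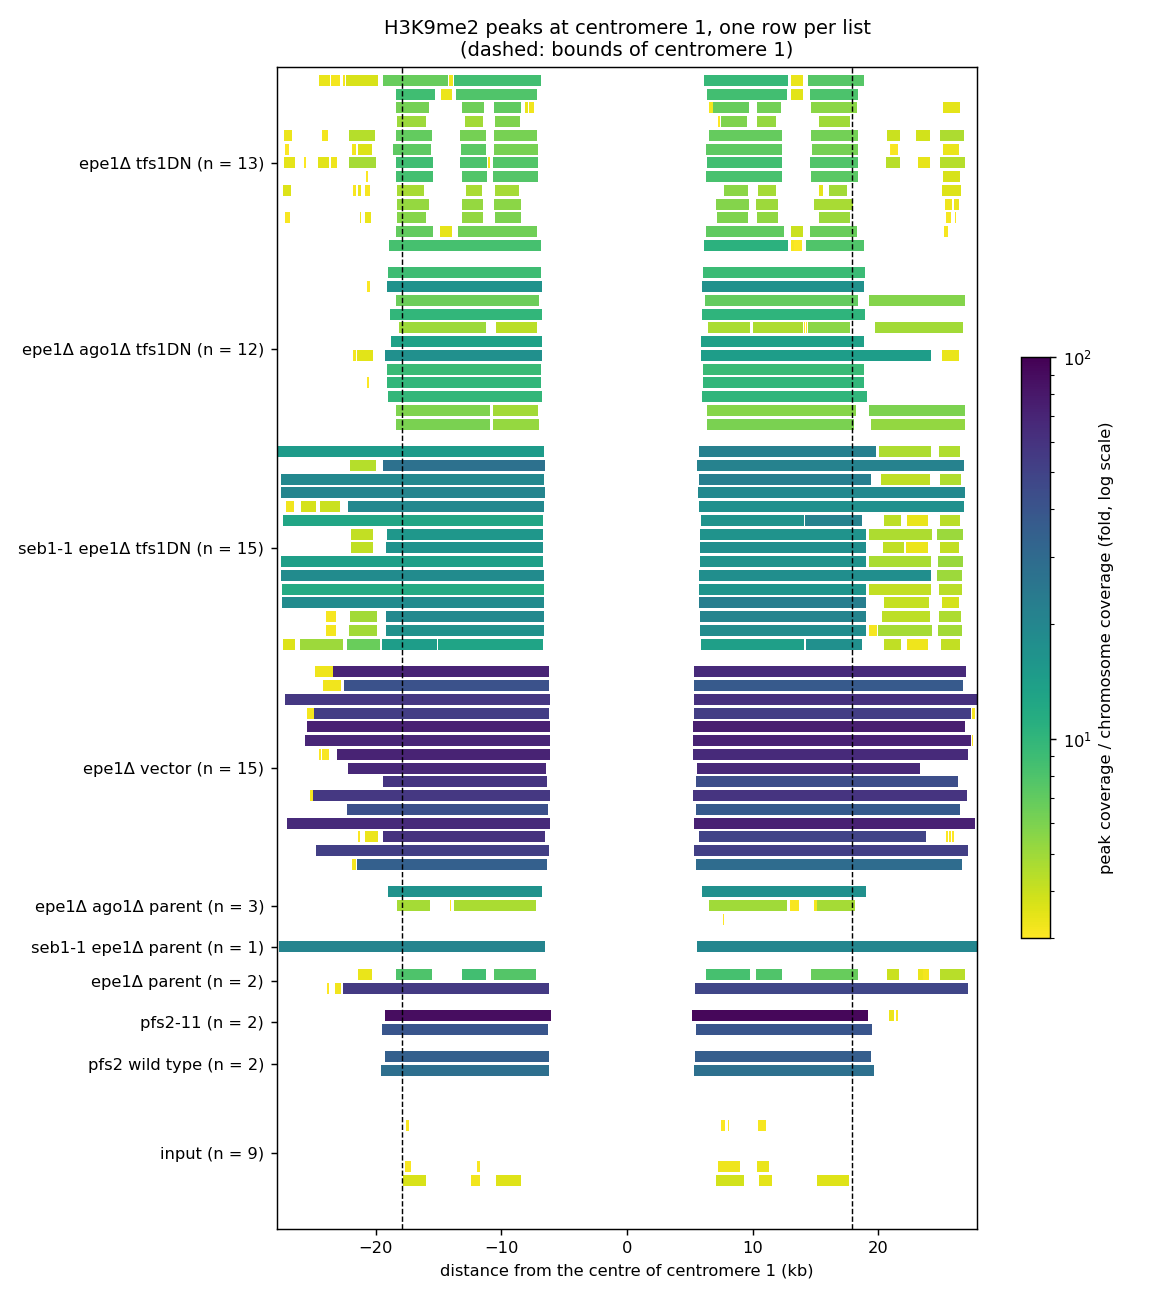
Each row is 1 peak list, grouped by genotype, and each bar is a peak placed by its distance in kb from the centre of centromere 1, coloured by fold on a log scale; dashed lines are the bounds of the centromere. No list has a peak over the middle of the core, the epe1Δ tfs1DN blocks are broken into 5 to 9 peaks, and the vector and seb1-1 blocks run out into the flanks.

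The first comparison asked how much of centromere 1 was under peaks. The epe1Δ tfs1DN isolates had 10.02 kb at the lowest, 16.9 kb at the median and 22.3 kb at the highest, against 23.4, 24.2 and 24.4 kb in vector isolates. The 2 groups did not overlap. The 2 epe1Δ tfs1DN batches did not overlap either. Isolates 1 and 13 had 22.0 and 22.3 kb, and isolates 2 to 12 had 10.02 to 20.6 kb. The SD of this group therefore includes the difference between its batches. The means were 16.6 ± 4.0 kb (SD, n = 13) in epe1Δ tfs1DN and 24.1 ± 0.270 kb (n = 15) in vector isolates, a difference of -7.54 kb. The permutation test of the difference in means, two-sided with 100000 resamples, gave p = 1e-05, the smallest it can give, and an adjusted p = 3.36e-05. Adjusted p-values of permutation tests are by the Benjamini-Hochberg method over 37 such tests on centromere 1, of which 23 passed 0.05.

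Some of the uncovered length lay at mirrored places in the arms. SPNCRNA.3676 in the left arm and SPNCRNA.3685 in the right arm, both noncoding RNA genes, had a peak in 4 of 13 epe1Δ tfs1DN isolates each and in 15 of 15 vector isolates. Isolates 1 and 13 of the first batch were among these 4 for each gene. Both genes passed Fisher's exact test (adjusted p = 0.000561 for each). Over all 1582 genes tested in this comparison, 11.6% were called lower in epe1Δ tfs1DN isolates. SPNCRNA.3675 in the left arm and SPNCRNA.3686 in the right arm had a peak in 12 of 13 epe1Δ tfs1DN isolates. IRC1-R, across the right bound, had one in 10 of 13. All 3 had one in 15 of 15 vector isolates. Some other genes of the arms had a peak in every isolate. nam5 (SPNCRNA.230), a noncoding RNA gene at the left end of the centromere, had a peak in all 13 epe1Δ tfs1DN and all 15 vector isolates and was 100% covered in both. SPNCRNA.3681, at the inner end of the right arm, also had a peak in all of them, but was 78.7% covered on average in epe1Δ tfs1DN and 100% in vector isolates. Of the 9 input libraries, 3 had a peak over nam5 and 3 over SPNCRNA.3681, and 0 had one over SPNCRNA.3676 or SPNCRNA.3685. The part of background in where the epe1Δ tfs1DN peaks lay was not tested.

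The study divided the right arm into 9 overlapping fragments, numbered from the outer end inwards, and these give the same picture as percent of bases under peaks. Fragment 4, in the middle of the arm, was 22.0 ± 32.8% covered in epe1Δ tfs1DN isolates (SD, n = 13), with 8 of 13 isolates having any peak in it, and 100% covered in all vector isolates. Its neighbours, fragments 3 and 5, were 44.7 ± 26.9% and 58.8 ± 19.9% covered in epe1Δ tfs1DN isolates and 100% in vector isolates. Fragments 1 and 9, at the ends of the arm, stood at 92.4 ± 13.9% and 93.8 ± 11.9% in epe1Δ tfs1DN isolates, again against 100% in vector isolates. In the input libraries the same order was seen. Fragment 4 had no peak in any input, and fragments 3 and 5 were at most 16.9% and 19.9% covered. Fragments 1 and 9 were covered up to 76.1% and 93.1%. All words of fragment 4 had another copy in the genome (100%, median 4 copies), so its value cannot be assigned to this copy alone.

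**Figure D2:**
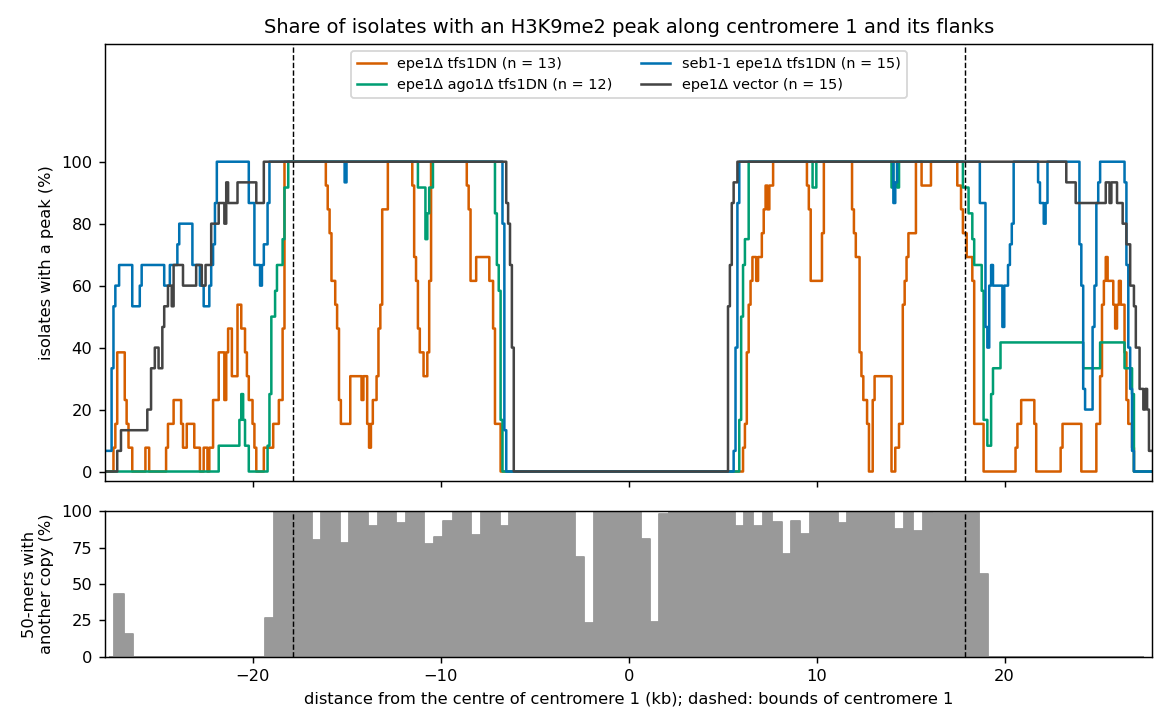
The upper panel gives the percent of isolates of each genotype with a peak at each position, in steps of 100 bp, against the distance in kb from the centre of centromere 1; the lower panel gives the percent of 50-base words with another copy in the genome, in steps of 0.5 kb. Both arms of the epe1Δ tfs1DN isolates (n = 13) dip in mirrored places where the other 3 genotypes stay at or near 100%, and the right flank of the ago1Δ isolates (n = 12) lies at an intermediate level.

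The fold of the peaks moved with the covered length. Over centromere 1 it was 6.76 ± 1.31 in epe1Δ tfs1DN isolates (SD, n = 13), 9.83 ± 3.92 in ago1Δ (n = 12), 18.1 ± 2.76 in seb1-1 (n = 15) and 57.0 ± 12.7 in vector isolates (n = 15). The listed coverage of chromosome I, by which fold is divided, differed between the groups. Its means were 7.22 in epe1Δ tfs1DN, 20.2 in ago1Δ, 28.7 in seb1-1 and 3.55 in vector isolates. The part of this coverage in fold and covered length was not tested. With peaks of a fold of at least 4.5 only, the difference between epe1Δ tfs1DN and vector isolates in covered length was -8.12 kb. When every peak that touched a peak of its own input library was left out, both arms dropped out of all vector and seb1-1 isolates, whose inputs had peaks in both arms, and the difference turned to 16.6 kb.

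The parents of the same genotype differed by as much as the groups. The epe1Δ parent of epe1Δ tfs1DN isolates 2 to 12 had 16.5 kb of centromere 1 under peaks at a fold of 7.85, and the epe1Δ parent of the vector isolates had 24.1 kb at a fold of 51.6. Isolates 2 to 12 averaged 15.5 ± 3.44 kb (SD, n = 11), 6 of them above and 5 below their own parent. The labels of these isolates name a parent of isolates 2 to 12, whereas the parent sample is titled for isolates 2 to 11, and they were taken as the same. Isolate 12 was 1 of the 6 above. The vector isolates lay above their own parent in 10 cases and below it in 5. Batch and genotype cannot be told apart in this comparison of epe1Δ tfs1DN with vector isolates. The same holds for every comparison below between isolate genotypes, because no batch held isolates of more than 1 genotype.

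The epe1Δ ago1Δ tfs1DN isolates, which lack Argonaute, had 20.8 kb at the lowest, 22.9 kb at the median and 23.1 kb at the highest. They lay below the vector isolates without overlap, with a difference of -1.51 kb in the means (22.6 ± 0.661 kb, n = 12, against 24.1 ± 0.270 kb, n = 15, SD; permutation test, adjusted p = 3.36e-05). They lay above epe1Δ tfs1DN isolates by 6.03 kb (permutation test, adjusted p = 8.54e-05). The overlap came only from epe1Δ tfs1DN isolates 1 and 13, of the first batch. SPNCRNA.3676 and SPNCRNA.3685 had a peak in all 12 ago1Δ isolates, against 4 of 13 epe1Δ tfs1DN isolates (Fisher's exact test, adjusted p = 0.00298 for each). These were the only 2 of 42 window genes tested that passed in this comparison, both higher in ago1Δ isolates. Over the 1505 genes tested, 5.12% were called higher in ago1Δ isolates and 19.1% lower, 24.2% in all.

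Each ago1Δ set had a parent of its own, and the parents differed. In set 1 the 3 isolates had 22.96 to 23.11 kb, against 23 kb in the parent. In set 2 the 5 isolates had 22.81 to 22.99 kb, against 18.6 kb in a parent whose blocks were broken into 7 peaks. In set 3 the 4 isolates had 20.8 to 22.5 kb, against a single peak of 0.085 kb in the parent. Every isolate of sets 2 and 3 was above its parent. Pooled over sets, the isolates averaged 22.6 ± 0.661 kb (n = 12) and the parents 13.9 ± 12.2 kb (n = 3), and the exact permutation test gave an adjusted p = 0.0389. That call depended on single parents: the difference was 1.79 kb without the parent of set 3 and 11.1 kb without that of set 2, and the call was lost both times (adjusted p = 0.173 each, exact permutation test).

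The seb1-1 epe1Δ tfs1DN isolates varied least of the 4 isolate groups, with 22.8 kb at the lowest, 23.4 kb at the median and 23.7 kb at the highest. The mean was 23.3 ± 0.196 kb (SD, n = 15), a difference of -0.761 kb from vector isolates and of 6.78 kb from epe1Δ tfs1DN isolates (permutation tests, adjusted p = 3.36e-05 each). The ranges of seb1-1 and vector isolates overlapped at their ends, and those of seb1-1 and epe1Δ tfs1DN isolates did not. The seb1-1 epe1Δ parent had 23.6 kb, above 14 of its 15 isolates.

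The peak-free core was the counterpart of these values, because in a list with 1 peak on each arm the gap and the covered length add up to the whole centromere. The gap was 14.2 ± 1.18 kb in epe1Δ tfs1DN (SD, n = 13), 12.99 ± 0.337 kb in ago1Δ (n = 12), 12.4 ± 0.133 kb in seb1-1 (n = 15) and 11.6 ± 0.270 kb in vector isolates (n = 15). Each of the first 3 differed from vector isolates (permutation tests, adjusted p = 3.36e-05 each), and ago1Δ isolates differed from epe1Δ tfs1DN isolates by -1.17 kb (adjusted p = 0.00129). The pfs2-11 samples had 11.2 and 11.8 kb, against 11.5 and 11.7 kb in wild-type samples.

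**Figure D3:**
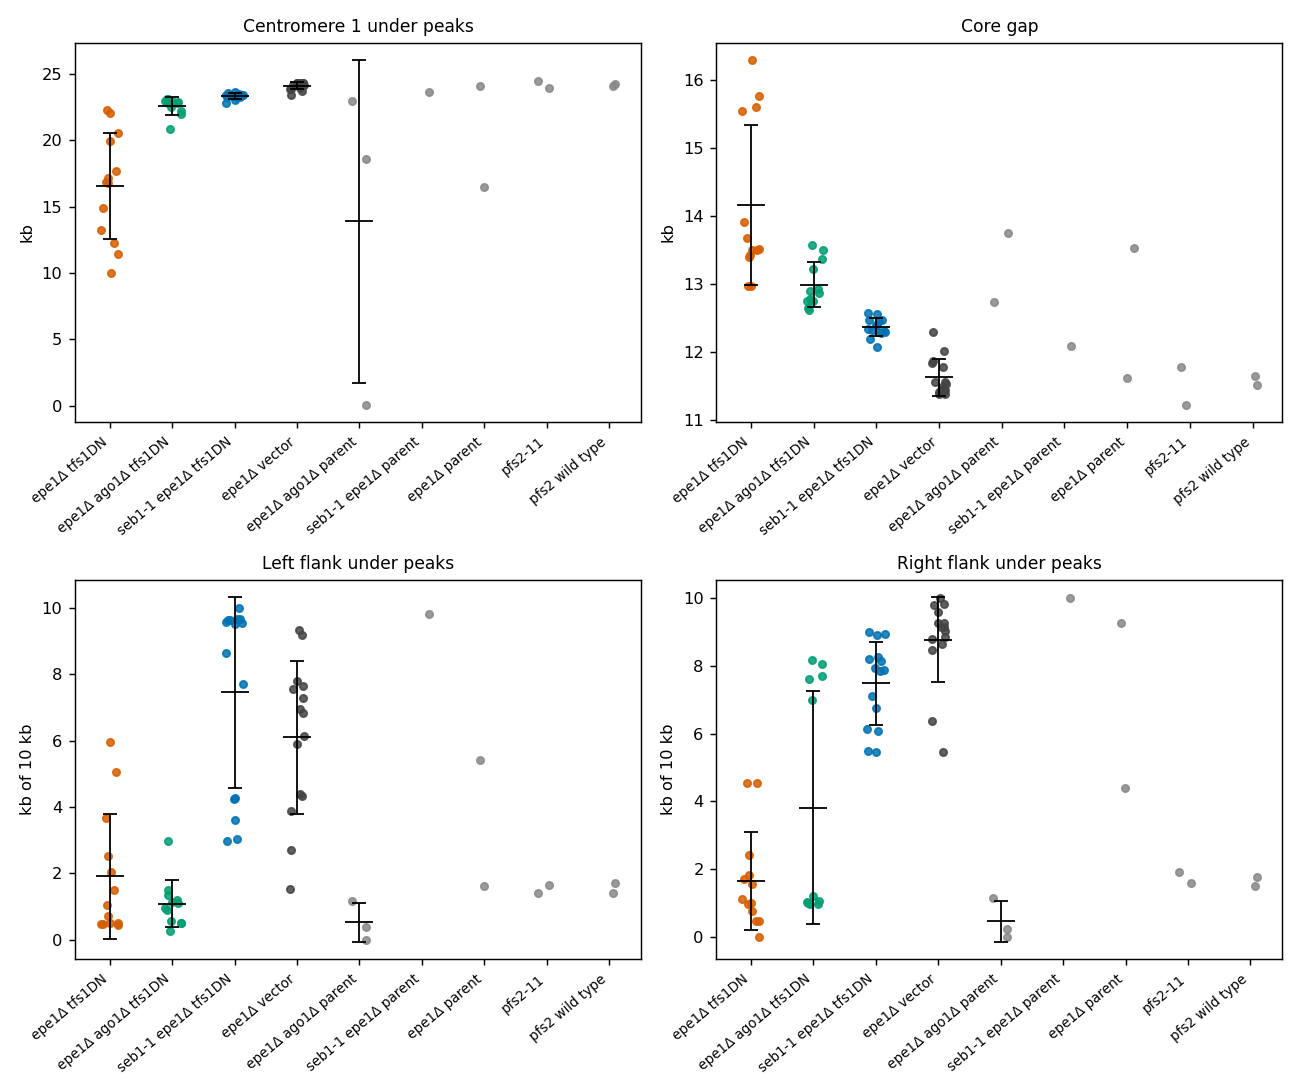
Points are single libraries and bars are mean ± SD for groups of 3 or more, for kb of centromere 1 under peaks, the peak-free core in kb, and kb under peaks in the 10 kb of the left and right flank. Among the 4 isolate groups, epe1Δ tfs1DN has the lowest mean covered length and the widest mean core, and the 2 epe1Δ parents lie apart, 1 near the epe1Δ tfs1DN isolates and 1 near the vector isolates.

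The inner ends of the blocks, which bound the core gap, were placed by their distance from the tRNA-Ala genes. In vector isolates the left block ended 6 to 429 bp past the outer end of SPATRNAALA.04 (median 360 bp), so that all 15 had a peak over this gene, and the right block reached past the outer end of SPATRNAALA.05 in 14 of 15 (median 380 bp). In seb1-1 isolates the blocks stopped close to the same genes, with medians of -54 bp on the left and -32 bp on the right, negative values lying outside the gene. In ago1Δ isolates the medians were -301 and -327 bp, and in epe1Δ tfs1DN isolates -645 and -681 bp. The blocks that stopped farthest from the genes lay at -614 and -707 bp in ago1Δ and at -2035 and -2007 bp in epe1Δ tfs1DN isolates. The aligned reads had been smoothed over 1 kb, so these distances describe where the called peaks ended and not a resolved boundary.

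As counts, SPATRNAALA.04 had a peak in 0 of 13 epe1Δ tfs1DN, 0 of 12 ago1Δ, 2 of 15 seb1-1 and 15 of 15 vector isolates, and Fisher's exact test gave adjusted p-values of 9.19e-07, 3.72e-06 and 1.52e-05 against vector isolates. SPATRNAALA.05 had one in 0, 0, 3 and 14 isolates (adjusted p = 1.82e-05, 2.83e-05 and 0.000644). The tRNA-Glu genes next to the core were rarely reached. SPATRNAGLU.03 had a peak in 1 vector isolate and SPATRNAGLU.04 in 3 vector isolates, and in no isolate of the other 3 genotypes. Among the samples at 37 C, both pfs2-11 and both wild-type samples had a peak over SPATRNAALA.04 and SPATRNAALA.05, and 1 pfs2-11 sample had one over SPATRNAGLU.03 and SPATRNAGLU.04, which also reached SPNCRNA.396 on the core side of SPATRNAGLU.04. The vector isolates and the samples at 37 C were also those with the highest fold, and the part of fold in the position of the inner edges was not tested.

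The outer ends were examined next, to see how far H3K9me2 ran beyond centromere 1. Left and right outer edges were read after joining peaks less than 1 kb apart. In wild-type samples at 37 C the block ended 1.397 and 1.70 kb outside the left bound and 1.52 and 1.78 kb outside the right bound. In pfs2-11 samples it ended 1.39 and 1.66 kb outside the left bound and 1.31 and 1.60 kb outside the right bound. All 4 had a peak over SPATRNAPHE.02, and the left edge lay 112 to 424 bp beyond the inner end of this gene.

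In vector isolates the blocks ran on. The left edge lay 1.52 kb outside the bound at the least, 6.84 kb at the median and 9.34 kb at the most, and the right edge 5.46, 9.14 and 10.8 kb outside. All 15 were beyond 5 kb on the right and 10 of 15 on the left. The epe1Δ tfs1DN isolates ended close to the bounds, with medians of 0.495 kb on the left and 0.471 kb on the right, which is at IRC1-L and IRC1-R. The exception was isolate 1 of the first batch, with a left edge 6.65 kb outside. These edges rest on the joining distance of 1 kb. In 9 of the 13 isolates the right flank held separate peaks farther out. In the left flank 7 isolates had peaks confined to the flank, and only in isolate 1 were these joined.

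The ago1Δ isolates had medians of 1.03 kb on the left and 1.01 kb on the right, and 2 of 12 went beyond 5 kb on the right. The joined blocks of seb1-1 isolates ended at different distances. On the left, 10 of 15 ended 9.25 to 16.9 kb outside, the farthest of them past the window, and 5 ended 1.20 to 4.21 kb outside. On the right, 10 ended 8.65 to 9.01 kb outside and 5 ended 0.847 to 1.18 kb outside. This split rests on the joining distance of 1 kb, since those 5 isolates had separate peaks farther out, with 5.46 to 6.75 kb of the right flank under peaks, and sdh1 near the far end of the flank had a peak in all 15. The right-flank peaks of 3 of the 4 ago1Δ isolates of set 3 were likewise not joined to the centromere. The seb1-1 epe1Δ parent reached 16.6 kb on the left and 11.8 kb on the right.

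**Figure D4:**
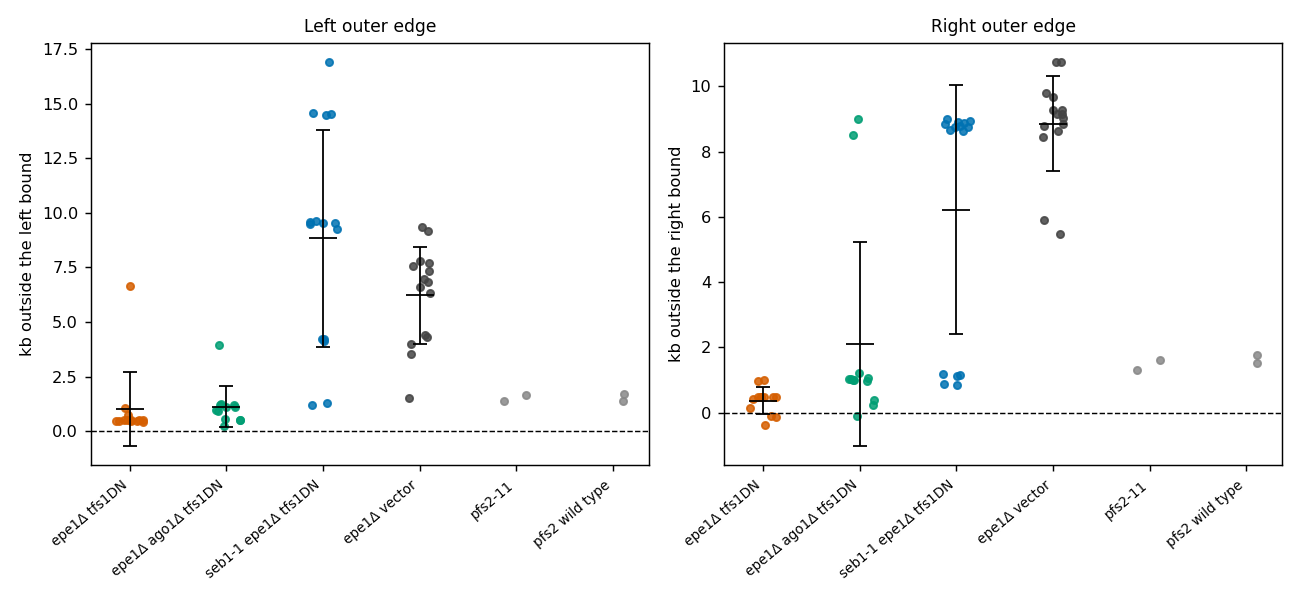
Points are single libraries, placed by how many kb the joined H3K9me2 block reached outside the left or right bound of centromere 1, with mean ± SD for groups of 3 or more; the dashed line is the bound. Vector isolates (n = 15) reach 5.46 to 10.8 kb on the right, while the joined blocks of epe1Δ tfs1DN isolates (n = 13) stay within 1.01 kb of it. Separate peaks farther out are not shown.

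Peaks in the flanks were counted whether or not they joined the centromere. Left flank: epe1Δ tfs1DN isolates had 0.436 kb at the lowest, 1.04 kb at the median and 5.95 kb at the highest under peaks, of 10 kb, against 1.52, 6.84 and 9.34 kb in vector isolates. The means differed by -4.18 kb (1.91 ± 1.88 kb, n = 13, against 6.09 ± 2.29 kb, n = 15, SD; permutation test, adjusted p = 0.000132). The ago1Δ isolates had 0.249, 1.03 and 2.97 kb, and differed from vector isolates by -5.02 kb (adjusted p = 3.36e-05, permutation test). The seb1-1 isolates had 2.98, 9.52 and 10 kb. Their mean of 7.45 ± 2.87 kb (n = 15) exceeded that of vector isolates by 1.36 kb, which did not pass (permutation test, p = 0.162, adjusted p = 0.207), and that of epe1Δ tfs1DN isolates by 5.54 kb, which did (adjusted p = 8.54e-05).

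Right flank: epe1Δ tfs1DN isolates had 0 kb at the lowest, 1.14 kb at the median and 4.55 kb at the highest, against 5.46, 9.14 and 10 kb in vector isolates, with no overlap. The means differed by -7.12 kb (1.65 ± 1.44 kb, n = 13, against 8.77 ± 1.25 kb, n = 15, SD; permutation test, adjusted p = 3.36e-05). The seb1-1 isolates had 7.48 ± 1.23 kb (n = 15), a difference of -1.29 kb from vector isolates (permutation test, adjusted p = 0.0149) and of 5.83 kb from epe1Δ tfs1DN isolates, again with no overlap (adjusted p = 3.36e-05).

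The right flank split the ago1Δ isolates by set. The 4 isolates of set 3 had 6.98 to 8.16 kb under peaks, against 0 kb in their parent. The 5 isolates of set 2 had 0.964 to 1.22 kb, against 0.240 kb in their parent. In set 1, 2 isolates were near their parent at 1.16 kb and isolate 7 had 7.61 kb. The left flank of the set 3 isolates held 0.249 to 0.549 kb. Over all 12 isolates the mean was 3.81 ± 3.44 kb, a difference of -4.96 kb from vector isolates (permutation test, adjusted p = 0.000152). The differences from epe1Δ tfs1DN isolates (2.17 kb, p = 0.0485, adjusted p = 0.0690, permutation test) and from the parents (3.35 kb, p = 0.0374, adjusted p = 0.0576, exact permutation test) did not pass after adjustment. When samples were permuted within sets, each with its own parent, the difference from the parents was 3.53 kb and passed (exact permutation test, adjusted p = 0.0385). The median of the ago1Δ isolates was 1.14 kb.

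The flanks repeated what the parents showed for the arms. The epe1Δ parent of epe1Δ tfs1DN isolates 2 to 12 had 4.38 kb under peaks in the right flank and 1.63 kb in the left, and the epe1Δ parent of the vector isolates had 9.27 kb and 5.42 kb. Of isolates 2 to 12, 9 had less in the right flank than their own parent and 2 had more. All 15 seb1-1 isolates had less in the right flank than their parent, which was covered over the whole 10 kb. No input library had a peak in either flank.

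The 54 annotated genes of the window comprised 7 protein-coding genes, 7 tRNA genes and 40 noncoding RNA genes. Of these, 49 had a peak in at least 1 epe1Δ tfs1DN or vector isolate and were tested. In epe1Δ tfs1DN against vector isolates, 16 of 49 (32.7%) had a peak less often and none more often by Fisher's exact test adjusted over all genes. Over the genome, 11.6% of the 1582 genes tested were called lower in epe1Δ tfs1DN isolates and 23.4% higher, 35.0% in all. Neighbouring genes shared peaks and are not independent.

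In ago1Δ against vector isolates, 20 of 49 window genes (40.8%) were lower and none higher, against 15.9% lower and 1.24% higher (17.2% in all) over all 646 genes tested. In seb1-1 against vector isolates, 2 of 49 were higher and 2 lower, shares of 4.08% each, against 11.5% higher and 13% lower (24.6% in all) over all 668 genes. In seb1-1 against epe1Δ tfs1DN isolates, 19 of 45 (42.2%) were higher and none lower, against 13.1% higher and 24.1% lower (37.2% in all) over all 1508 genes.

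In the left flank lie 2 protein-coding genes. per1, an amino acid permease gene nearest to the centromere (3749441 to 3751729), had a peak in 7 of 13 epe1Δ tfs1DN, 3 of 12 ago1Δ, 15 of 15 seb1-1 and 14 of 15 vector isolates. The ago1Δ share passed against vector isolates (Fisher's exact test, adjusted p = 0.00887) and the epe1Δ tfs1DN share did not (adjusted p = 0.0806). rpl1002, which encodes a protein of the large ribosomal subunit (3744146 to 3744906), had a peak in 5 epe1Δ tfs1DN, 0 ago1Δ, 10 seb1-1 and 2 vector isolates. It was 1 of the 2 window genes that seb1-1 isolates covered more often than vector isolates (Fisher's exact test, adjusted p = 0.0317), the other being SPNCRNA.933, which overlaps it on the opposite strand. Both genes overlap the 0.5 kb steps at -27.1 and -26.6 kb from the centre. There 43% and 15.8% of the 50-base words had another copy, so part of the reads cannot be assigned to this place alone.

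SPATRNAPHE.02, the tRNA gene between per1 and the centromere, had a peak in 1 of 13 epe1Δ tfs1DN, 1 of 12 ago1Δ, 13 of 15 seb1-1 and 15 of 15 vector isolates. The first 2 groups passed against vector isolates (Fisher's exact test, adjusted p = 1.19e-05 and 2.83e-05), and seb1-1 isolates passed against epe1Δ tfs1DN isolates (adjusted p = 0.00048). In 6 epe1Δ tfs1DN isolates per1 had a peak and the tRNA gene next to it had none, so those flank peaks stood apart from the centromere.

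In the right flank, emc5, a subunit gene of the endoplasmic reticulum membrane complex next to IRC1-R (3790924 to 3791756), had a peak in 0 of 13 epe1Δ tfs1DN, 5 of 12 ago1Δ, 10 of 15 seb1-1 and 15 of 15 vector isolates. The epe1Δ tfs1DN and ago1Δ isolates passed against vector isolates (Fisher's exact test, adjusted p = 9.19e-07 and 0.00929). rad50, which encodes a subunit of the MRN DNA repair complex (3791753 to 3795998), had one in 3, 5, 15 and 15 isolates, with adjusted p = 0.000172 for epe1Δ tfs1DN and 0.00929 for ago1Δ against vector isolates.

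sdh1, the gene of a succinate dehydrogenase subunit (3796280 to 3798462), had a peak in 9 epe1Δ tfs1DN, 5 ago1Δ, 15 seb1-1 and 14 vector isolates. The epe1Δ tfs1DN share did not pass against vector isolates (Fisher's exact test, adjusted p = 0.326). It therefore had a peak in more epe1Δ tfs1DN isolates than the 2 genes nearer to the centromere. azr1, a protein phosphatase gene, and cdd1, annotated as a cytidine deaminase gene, begin near the right end of the window and had a peak in 4 and 3 vector isolates and in no isolate of the other 3 genotypes.

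The curated heterochromatin-prone site HOOD-9 lies in this flank. It was 8.77 ± 18.6% covered in epe1Δ tfs1DN (SD, n = 13), 40.9 ± 50.6% in ago1Δ (n = 12), 89.0 ± 9.01% in seb1-1 (n = 15) and 96.9 ± 8.50% in vector isolates (n = 15). It had a peak in 3, 5, 15 and 15 isolates, in 1 of 2 pfs2-11 samples and in neither wild-type sample.

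**Figure D5:**
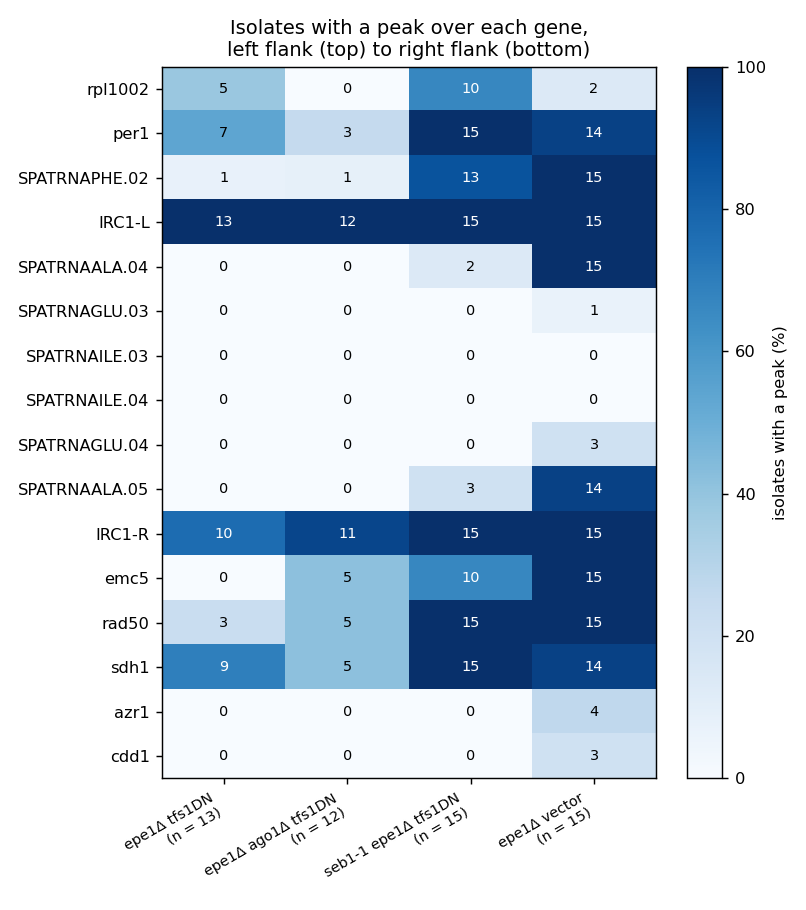
Colours give the percent of isolates of each genotype with a peak over each protein-coding gene, tRNA gene and IRC element of the window, in order from the left flank (top) to the right flank (bottom), and the numbers give the isolates. SPATRNAALA.04 and SPATRNAALA.05 have a peak in 15 and 14 of 15 vector isolates and in at most 3 isolates of any other genotype.

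The peaks confined to a flank had median folds below those of the centromere in each genotype. In epe1Δ tfs1DN isolates there were 40 such peaks, in the left flank of 7 and the right flank of 9 of the 13 isolates, with folds of 3.03 to 4.81 (median 3.35). In ago1Δ isolates there were 9, with folds of 3.07 to 6.0 (median 3.52). The right-flank peaks of the 4 isolates of set 3 were among the highest of these, with folds of 5.72, 4.86, 6.0 and 5.33 in isolates 3, 5, 11 and 12, close to the folds of 6.78, 4.84, 5.63 and 5.94 over the centromere in the same isolates. In seb1-1 isolates there were 40, with folds of 3.14 to 6.69 (median 4.23), and in vector isolates 15, with folds of 3.01 to 3.31 (median 3.09). Vector isolates averaged 6.09 kb of the left and 8.77 kb of the right flank under peaks. Most of this length lay in arm peaks that ran into the flanks, which are not counted here. The 15 peaks therefore do not describe the H3K9me2 of the vector flanks.

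The arms were set against each other by the log2 ratio of the coverage under peaks in the left arm to that in the right arm. The ratio was -0.03 ± 0.06 in epe1Δ tfs1DN (SD, n = 13), -0.01 ± 0.09 in ago1Δ (n = 12), -0.15 ± 0.25 in seb1-1 (n = 15) and 0.07 ± 0.16 in vector isolates (n = 15). The seb1-1 and vector isolates differed by -0.22 (permutation test, adjusted p = 0.0151), with ranges that overlapped. Each listed peak has 1 coverage value, so a peak that ran into a flank entered with its mean over the whole peak. The other 4 comparisons of this ratio did not pass.

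Centromere 1 was then compared with centromeres 2 and 3 within each library, as percent of the centromere under peaks. In vector isolates 67.5 ± 0.756% of centromere 1 was covered, against 72.9 ± 0.916% of centromere 2 and 79.5 ± 0.161% of centromere 3 (SD, n = 15). In epe1Δ tfs1DN isolates the values were 46.3 ± 11.2%, 47.9 ± 10.8% and 63.4 ± 10.4% (n = 13). Centromere 1 minus the mean of centromeres 2 and 3 was -9.33 percentage points in epe1Δ tfs1DN, -9.09 in ago1Δ, -9.51 in seb1-1 and -8.78 in vector isolates, and was negative in every one of the 55 isolates. Sign-flip permutation tests, exact over all sign changes, gave adjusted p = 0.000502, 0.000951, 0.000141 and 0.000141. The percent counted the whole centromere with its peak-free core, which averaged 11.6 kb of the 35.7 kb of centromere 1 in vector isolates. The share of the core in centromeres 2 and 3 was not measured. These tests therefore cannot separate how fully the arms were covered from the size of the core.

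The last comparison asked about pfs2-11 at centromere 1, with 2 samples against 2, where the exact permutation test cannot give less than p = 0.333. The pfs2-11 samples had 24.5 and 24.0 kb of the centromere under peaks, against 24.1 and 24.2 kb in wild-type samples. The right flank had 1.92 and 1.60 kb in pfs2-11, against 1.52 and 1.78 kb in wild-type samples, and the left flank 1.39 and 1.66 kb, against 1.397 and 1.70 kb. The values of the 2 genotypes overlapped in all 3 measures. Fold over the centromere was 92.0 and 39.5 in pfs2-11 samples, against 35.2 and 28.0 in wild-type samples. 1 pfs2-11 sample had 2 further peaks in the right flank, with folds of 3.05 and 3.31.

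Input libraries showed where the lists had background. Of the 9, 3 had peaks inside centromere 1, covering 10.3 kb in the seb1-1 input, 3.34 kb in the vector input and 1.30 kb in the input of ago1Δ set 1, at mean folds of 3.60, 3.27 and 3.12. The other 6 had none in the window. All input peaks lay inside the bounds.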

How the data were processed

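H3K9me2 ChIP-seq (antibody ab1220) was analysed from the peak list of each library. The 5 RNA polymerase II samples were not used here. Adaptor trimming, removal of reads under 20 nt, alignment with Bowtie to ASM294v2 (a read with several best sites was placed at 1 of them) and smoothing over 1 kb were done by the authors. SAMtools and bedtools are also named in the submitters' notes. The program that called the peaks is not given in the sources used here. For ectopic sites, the study's methods set a minimum fold over the background of the isolate.

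The deposited lists give each peak's start, end and signal, the authors' mean coverage of the peak and of its chromosome, without scaling between libraries or input correction. Starts count from 0 and were moved to 1-based. Chromosome coverage, the only measure of depth, was 1.70 to 88.7 reads per base. It was no plain mean in some lists, so folds were set side by side as listed values. Input libraries gave the background.

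Overlapping peaks were united per library. The core gap was the longest peak-free stretch between the first and last covered base of the centromere. Differences of means were tested by two-sided permutation (100000 resamples, or exact where a group had under 10 values), and genes by Fisher's exact test over all genes of the genome with a peak in either group, adjusted by the Benjamini-Hochberg method at 0.05. The gene test was tested on simulated isolates. The bounds of centromeres 2 and 3 are those of PomBase. The list of the parent of isolates 1 and 13 held no peak and was left out. The list of isolate 13, assigned by its labels, carries another isolate number in its name. Named were all protein-coding and tRNA genes of the flanks, the tRNA and noncoding genes inside, fragments 1 to 9 and HOOD-9. Members, lists and tests were chosen with earlier results of these data known. Isolate numbers only name isolates. Deviations of same-numbered isolates over 1 kb bins had median correlations of -0.0418 to 0.340 over the comparisons of isolate groups. The highest was for seb1-1 against vector isolates, where single pairs ran from -0.631 to 0.656. The pfs2 replicate numbers mark a shared input, and same-numbered samples deviated together (r = 0.443 over bins within the window, a description). Alternatives changed the minimum fold (4.5) and length (1 kb), input filtering, the statistic, the merging distance, the samples and the gene overlap (50%). Python 3.11.15, NumPy 2.4.6, SciPy 1.17.1, pandas 2.3.3 and Biopython 1.88 were used.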

Additional observations from a re-analysis of the deposited data

Results flagged for a closer look

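Among the 9 input libraries, the input of the seb1-1 batch stood far from the others in kb of centromere 1 under peaks, with 10.3 kb, against 3.34 kb in the next highest and 0 kb in 6 libraries. The rule used is taken to meet a gap of this kind by chance in about 1 in 20 groups. That rate was not measured for values like these, of which 6 are 0 kb. No other group had between 4 and 10 samples.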

How the results depend on the processing

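Of 308 alternative values over 42 results, 271 kept their direction and their side of the threshold. All 15 values without the first epe1Δ tfs1DN batch and all 15 without epe1Δ tfs1DN isolate 9, of the second batch, did. So did all 29 with the replicate block, with signs flipped within same-numbered pairs, where kb of centromere 1 for epe1Δ tfs1DN minus vector was -7.56 kb.

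Leaving out peaks that touched a peak of their own input changed the most results, since this removed both arms and every flank joined to them from vector isolates, seb1-1 isolates and the ago1Δ isolates of set 1, whose inputs had peaks in both arms. Kb of centromere 1 became 16.6 for epe1Δ tfs1DN minus vector, 16.8 for ago1Δ minus vector, 0 for seb1-1 minus vector, 0.271 for ago1Δ minus epe1Δ tfs1DN, -16.6 for seb1-1 minus epe1Δ tfs1DN and 10.6 for ago1Δ isolates minus parents. Left flank kb became 1.52 for epe1Δ tfs1DN and 0.393 for ago1Δ minus vector, and -0.451 for seb1-1 minus epe1Δ tfs1DN. Right flank kb became 1.60, 3.07 and 4.34 for epe1Δ tfs1DN, ago1Δ and seb1-1 minus vector. The log2 arm ratio of ago1Δ minus epe1Δ tfs1DN became -0.0078, as it did without set 1. Several gaps and ratios could not be given there. When instead the bases under a peak of any input were left out of every library, an alternative chosen after seeing the data, that ratio was 0.061 and that of epe1Δ tfs1DN minus vector -0.14, both now past the threshold.

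With a fold of at least 4.5, ago1Δ isolates minus parents gave 8.77 kb of centromere 1 (call lost) and a gap of 0.0822 kb. The comparison of ago1Δ minus epe1Δ tfs1DN gave a gap of -0.961 kb (call lost), 0.117 kb in the left flank and 3.14 kb in the right flank (now past), and seb1-1 minus vector called 7 window genes in place of 4. The right flank of ago1Δ minus epe1Δ tfs1DN also passed with peaks of at least 1 kb (2.43 kb) and without set 2 (4.14 kb). The right flank of pfs2-11 minus wild type was -0.193 kb at either of these 2 peak minimums. As a difference of medians the log2 ratio of seb1-1 minus vector was -0.13 (call lost). Permuted within sets, ago1Δ isolates minus parents passed in the right flank (3.53 kb).

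For ago1Δ isolates minus parents, kb of centromere 1 was 10.8 without set 2 and 2.15 without set 3, and the call was lost in both. Leaving out 1 parent gave 1.79 to 13.2 kb, and gaps of -0.765 to 0.257 kb, with 0.367 kb without set 2. Leaving out a replicate of pfs2 gave -0.26 to 0.43 kb of centromere 1, gaps of -0.43 to 0.26 kb and -0.177 to 0.397 kb of the right flank. The causes were not tested. Depth was known only as coverage, and 1 kb smoothing and repeats limit what edges and arms can show.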
